A study of Mus musculus with 6 samples.

Results

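Sense-overlapping circRNAs are, by the name of the class, circular RNAs that overlap a gene on its own strand and are not classed as exonic or intronic. Whether they consist of annotated exons was not analysed here. They were taken by their class from the study's annotation sheet of detected circRNAs, of which 1734 entries were held here, and joined by probe to the array values. The class held 229 circRNAs of 223 host genes, all of them among the 13420 probes of the deposited table, and the 1342 exonic circRNAs of the same sheet served for comparison. CircRNA levels were measured on 1-colour arrays in microglia of the cortex of 6-month-old male mice, 3 wild-type (WT) C57BL/6J mice and 3 APP/PS1 mice. The APP/PS1 mice carried a chimeric mouse/human APP695 transgene with the Swedish mutation and a mutated human PS1, and the promoter of these transgenes is not given in the sources used here. Magnetic beads that bind CD11b, which myeloid cells carry on their surface, picked up the cells, and their RNA was digested with RNase R, which removes linear RNA. The labels describe independent experiments with a different donor in each. The p-values given here measure only the spread between these arrays.

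CircRNAs form when a splice donor is joined to an acceptor upstream of it, and most known circRNAs consist of exons of protein-coding genes. Some keep introns or have ends that match no annotated splice site, and annotation tables gather such circles in a class of their own when they lie on the strand of a gene. Without free ends, circRNAs resist exonucleases, and many are abundant in the brain.

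The arrays hold no probe for a linear marker mRNA, so the cell type could be looked at only through host genes. Of 18 microglia and macrophage markers, 2 had a circRNA among the sheet's entries, Ikzf1 and Inpp5d, with 3 circRNAs in all, 1 of them sense overlapping. Cx3cr1, P2ry12 and Tmem119 had none among the entries held. The median of the 3 was 6.59, 6.83 and 6.68 in WT and 6.40, 5.65 and 6.51 in APP/PS1, lower in APP/PS1 without overlap and lowest on APP/PS1 array 2. On each array this median was the value of 1 circRNA, the exonic one of Ikzf1. Of all probes, 12.8% were lower in APP/PS1 without overlap. The differences of the 3 ran from -0.51 to -0.43, and the genotypes overlapped in the sense-overlapping circRNA of Ikzf1 and in the exonic one of Inpp5d. Each was lowest on APP/PS1 array 2, at 5.65 and 5.36 for Ikzf1 and 6.41 for Inpp5d. That array carried much of the differences, and the circRNAs of Ikzf1 have nearly the same ends. Of 14 neuron markers, 9 had 11 circRNAs, 7 of them sense overlapping, with that of Cnr1 the brightest. The median log2 signal of these 11 was 5.15, 5.07 and 5.46 on WT arrays 1, 2 and 3 and 5.63, 5.12 and 4.94 on APP/PS1 arrays 1, 2 and 3. None of the marker hosts of microglia, neurons, astrocytes or oligodendrocytes had a circRNA past the thresholds used below. In a sample of many cells, fewer cells of a type and less RNA per cell cannot be told apart.

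Short RNA sequences with a known product lie between the ends of a few members. Hairpins of 7 microRNAs of the same strand lay inside 3 members, while 11 of the 1342 exonic circRNAs had one between their ends. The mature sequences, from RefSeq for GRCm38.p6, are shown because the hairpins lie between the ends of these members; capitals mark the seed, bases 2 to 8, which pairs with target RNAs. A member on chromosome 7 named for Mir344f spanned Mir344f and Mir344i, and another named for Mir344i spanned Mir344i.
mmu-miR-344f-3p: cUCUAGCCaggaccugacuac
mmu-miR-344f-5p: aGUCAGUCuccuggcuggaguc
mmu-miR-344i: aAGUCAGGcuccuggcugga
A member on chromosome X named for Mir463 spanned 5 hairpins of a microRNA cluster.
mmu-miR-741-3p: uGAGAGAUgccauucuauguaga
mmu-miR-741-5p: uACGUAGAuugguaccuaucaug
mmu-miR-463-3p: uGAUAGACaccauauaagguag
mmu-miR-463-5p: uACCUAAUuuguuguccaucau
mmu-miR-880-3p: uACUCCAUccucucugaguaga
mmu-miR-880-5p: uACUCAGAuugauaugaguca
mmu-miR-878-3p: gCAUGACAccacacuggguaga
mmu-miR-878-5p: uAUCUAGUuggaugucaagaca
mmu-miR-881-3p: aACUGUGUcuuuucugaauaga
mmu-miR-881-5p: cAGAGAGAuaacagucacaucu
The 13 mature microRNAs had 13 different seeds. Whether the circles contain these hairpins was not measured, since a probe reads 1 site of a circRNA.

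The recorded length differed between the members and the exonic circRNAs. Its median was 11132 nt, with quartiles of 3055 and 24920 nt and a range of 60 to 553166 nt, against 599 nt for the exonic circRNAs. In all 229 members, or 100% of them, the length equalled the genomic distance between the ends, which was so in 59 exonic circRNAs, or 4.40%, and in all intronic, antisense and intergenic circRNAs of the sheet. The length of a member is therefore that of its unspliced span, and on this measure the classes were alike, since the exonic circRNAs had a median span of 11646 nt. The shortest were a circRNA of Rpl4, a ribosomal protein gene, at 60 nt, one of Hist1h1c, a linker histone gene, also at 60 nt, and one of Pcdh18, a protocadherin gene, at 61 nt. The longest, at 553166 nt, carried the name of the chaperonin gene Cct2 and enclosed 5 protein-coding genes, Best3, Cct2, Lrrc10, Myrfl and Rab3ip. It was followed by AK006870 with 199599 nt and Gm24388 with 174829 nt. A group of 13 members was 60 to 119 nt long, no member had a length from there up to 386 nt, and 11 were longer than 100 kb.

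The sheet names 3 sources for the members, circBase and a pair of sources given as numbers. The larger numbered source held 151 members, the smaller one 58 and circBase 20. Of the 76 entries of the smaller numbered source, 76.3% were sense overlapping and 1 was exonic, whereas 10.4% of the entries of the larger source and 9.39% of those of circBase were sense overlapping. Of the 13 shortest members, 10 came from circBase.

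The sheet names no genome build. Its positions lay inside the named gene of GRCm38.p6 in 1163 of 1168 exonic circRNAs that also had an older position in their alias, and those older positions in 184 of the same 1168. Against these gene models, both ends lay inside the host in 179 of the 212 members that could be matched, or 84.4%, and in 1332 of 1337 exonic circRNAs, or 99.6%. A single end lay inside the gene in 20 members, 10 enclosed the gene and 3 did not overlap it. In the larger numbered source 78.8% of members had both ends inside, and in the smaller one 94.7%. At least 1 annotated start site of the host lay between the ends of 11 of the 165 members with a promoter entry, or 6.67%, and of 15 of 1069 exonic circRNAs, or 1.40%. These 11 had the hosts Cct2, Tcte3, Sv2b, Ncoa7, Rreb1, Tex16, Cdc14a, A230057D06Rik, Pde6h, 3110039I08Rik and Mgat4e; in Sv2b, Ncoa7, Rreb1, Cdc14a and 3110039I08Rik other start sites of the host lay outside. The promoter of A230057D06Rik is shown because this circRNA alone among the 11 was past both thresholds in the genotype comparison. It lies at chr7:61927525-61927824 on the minus strand of GRCm38.p6, from RefSeq.
A230057D06Rik promoter: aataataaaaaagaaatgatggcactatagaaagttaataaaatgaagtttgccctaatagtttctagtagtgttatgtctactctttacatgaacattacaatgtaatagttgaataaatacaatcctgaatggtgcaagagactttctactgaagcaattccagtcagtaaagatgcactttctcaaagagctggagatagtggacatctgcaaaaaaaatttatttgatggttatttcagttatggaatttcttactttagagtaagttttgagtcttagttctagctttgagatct
The motif CG, read on both strands at once since it is its own reverse complement, occurs 0 times in it and a median of 7 times in the 32851 RefSeq windows of 300 bases. Its GC content is 30.7%, against a median of 52.7%.

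Members were a little brighter than the exonic circRNAs held here on each array, and dimmer than the median of all probes. The median raw signal of the members was 80.0, 65.0 and 60.0 on WT arrays 1, 2 and 3 and 77.0, 82.0 and 72.0 on APP/PS1 arrays 1, 2 and 3, over a median local background of 14.0 to 20.0. The filter asked for a signal well above background in 3 or more of the 6 arrays, and the probes that pass it are the 13420 of the deposited table, so all 229 pass by the way they were chosen. On all 6 arrays 201 members, or 87.8%, were well above background, against 85.2% of exonic circRNAs, and 6 members were so on 3 arrays only. After quantile normalization the members had median log2 signals of 5.57, 5.49 and 5.55 in WT and 5.63, 5.58 and 5.50 in APP/PS1. The exonic circRNAs had medians of 5.18, 5.24 and 5.26, and of 5.21, 5.23 and 5.22. Members were thus above exonic circRNAs on 6 of 6 arrays, by 0.33 ± 0.07 (log2, mean ± SD over 6 arrays), and by 0.32 ± 0.13 within the larger numbered source. The arrays share their probes, so these 6 differences are repeated readings of 1 set of probes, and probe brightness also depends on the probe itself. The gap was 0.22 in the authors' processed values and 0.14 with a normexp background correction of the median spot signal. The median of all 13420 probes was 5.67 on each array after quantile normalization, above both classes. The sheet was held only in part, so the exonic circRNAs compared here are a part of those on the arrays.

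**Figure D1:**
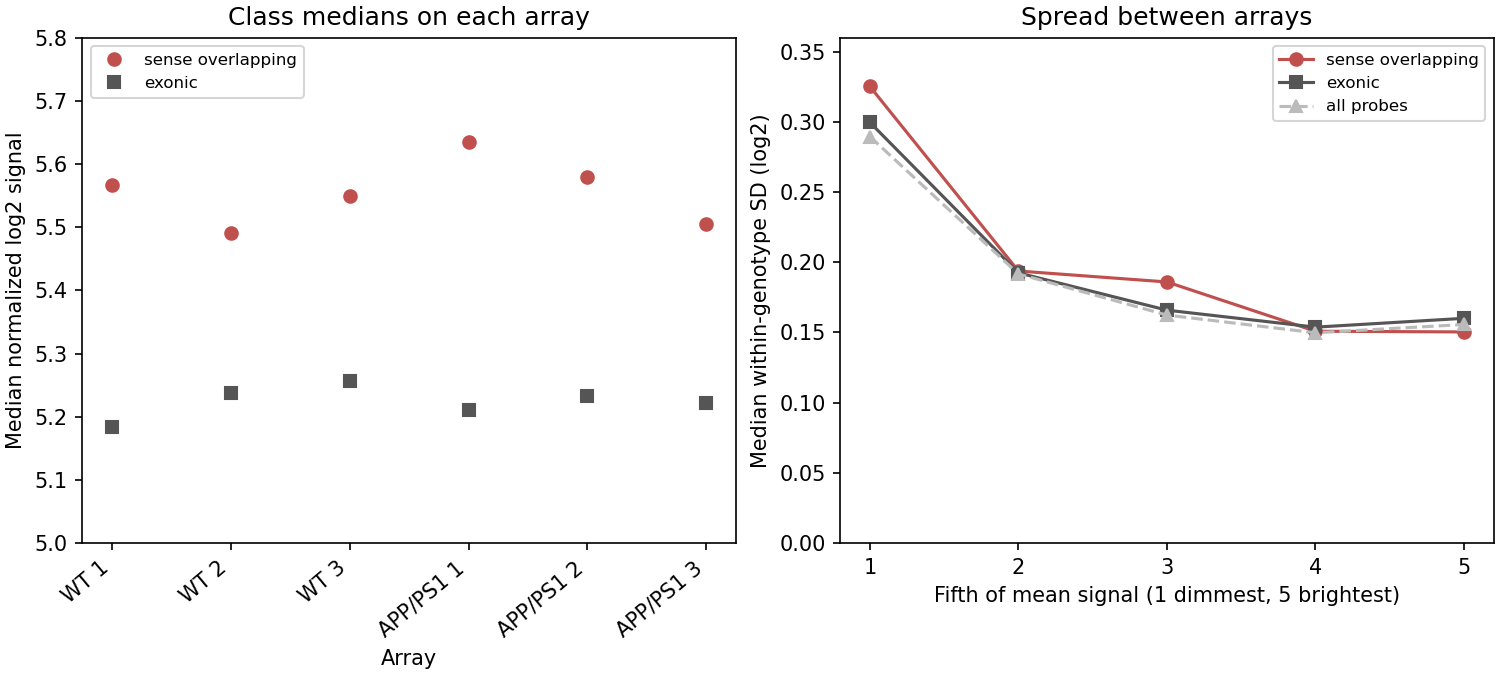
Left, median normalized log2 signal of 229 sense-overlapping (circles) and 1342 exonic circRNAs (squares) on each array; right, median within-genotype SD by class of mean signal, with all 13420 probes as triangles. Members lie above exonic circRNAs on every array, from 5.49 to 5.63 against 5.18 to 5.26, and the SD falls from 0.33 in the dimmest class of members to 0.15 in the brightest. The median signal of all probes, not drawn at left, is 5.67 on each array.

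The spread between arrays of 1 genotype was much the same in both classes. The median SD, pooled over the genotypes, was 0.20 for members and 0.19 for exonic circRNAs on the log2 scale. It depended on brightness: among 5 equal classes of all probes by mean signal, the members in the dimmest had a median SD of 0.33 and the exonic circRNAs 0.30, and in the brightest these were 0.15 and 0.16. Members made up 18.8% of their class in the dimmest and 21.4% in the brightest, exonic circRNAs 25.9% and 14.8%. Over the 229 members the Spearman correlation of mean signal with SD was -0.41, and with length it was -0.15, as descriptions across probes that share the same arrays.

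A few members had a spread far above this, and they were picked out after their values were seen. The circRNA of Vps33b, a vesicle sorting gene, read 7.34, 9.97 and 9.37 in WT and 9.82, 8.61 and 8.15 in APP/PS1, an SD of 1.15 with a difference of -0.04 (-0.81 to 0.51 with each array left out). That of Dnajc15, a mitochondrial chaperone gene, read 5.25, 7.20 and 7.28 in WT and 7.28, 6.60 and 6.88 in APP/PS1. WT array 1 was the low one in both. It was the lowest WT array in 8 of the 10 members of widest spread, and in 30.6% of all members. Acer3, an alkaline ceramidase gene, is another of the 10. Its circRNA read 2.20, 3.89 and 4.01 in WT and 4.11, 4.39 and 4.43 in APP/PS1. The difference of 0.94 (SE 0.45, limma adjusted p = 0.334) was not past the thresholds. It was past them without WT array 2 (1.23) or WT array 3 (1.29) and with a replicate block. WT array 1 carried most of this difference, since WT arrays 2 and 3 lay close below the lowest APP/PS1 value. The circRNA was well above background on 2 of the WT arrays.

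The 5 brightest members had hosts of different kinds. The circRNA of Soga3 had a mean of 12.23 ± 0.02 in WT and 12.25 ± 0.07 in APP/PS1 (log2, SD, n = 3), a difference of 0.02. One of XLOC_006198 had a difference of -0.16 (SE 0.12), and one of 4930553C11Rik had 12.07 ± 0.04 and 11.65 ± 0.16. Spock1, a proteoglycan gene of the nervous system, followed with 11.76 ± 0.03 and 11.92 ± 0.06, and Snapc1 with 11.18 ± 0.05 and 11.91 ± 0.46. The genotypes overlapped for Soga3 and XLOC_006198 and did not for the other 3. The 5 dimmest, of Mir463, Ccnc, Hpse2, Zfp808 and Dram2, were well above background on 3 arrays each.

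Between genotypes, 11 members were higher and 6 lower in APP/PS1 mice past both thresholds, a 1.5-fold difference with p under 0.05 before adjustment. These were 4.80% and 2.62% of the members, beside 3.15% and 2.26% of all 13420 probes (5.41% in either direction). Among exonic circRNAs 34 were higher and 26 lower, or 2.53% and 1.94%. With limma, 0 members and 0 of all probes had an adjusted p under 0.05, the lowest of a member being 0.124. The test named in the methods had 4 probes under it and none of them a member. At an unadjusted p, 44 members, or 19.2%, were under 0.05, against 17.8% of all probes. The genotypes did not overlap in 57 members, or 24.9%, where all probes gave 25.1%, and 29 of the 57 were higher (12.3% of all probes) and 28 lower (12.8%). The shares of members by unadjusted p and without overlap were therefore close to those of all probes. The median difference was -0.02 for members, -0.02 for exonic circRNAs and -0.01 for all probes. With scaling to the 75th percentile these were -0.08, -0.07 and -0.05, and quantile normalization itself holds the arrays to a common distribution.

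The counts moved with the setting. Scaling each array to its 75th percentile gave 8 higher and 8 lower members (331 and 422 of all probes, against 423 and 303), and the authors' processed values gave 5 and 2 (214 and 104 of all probes). The median spot signal without background subtraction gave 4 and 2 (197 and 90), and with a normexp correction and an offset of 50 it gave 2 and 0 (128 and 59). Calls lost under these are named with each member. Without APP/PS1 array 2 there were 7 higher members (384 higher and 249 lower of all probes). Without APP/PS1 array 1 there were 10 lower ones (355 higher and 508 lower of all probes). The slide held WT in its row 1 and APP/PS1 in its row 2, so an effect of the row and one of the genotype cannot be told apart.

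**Figure D2:**
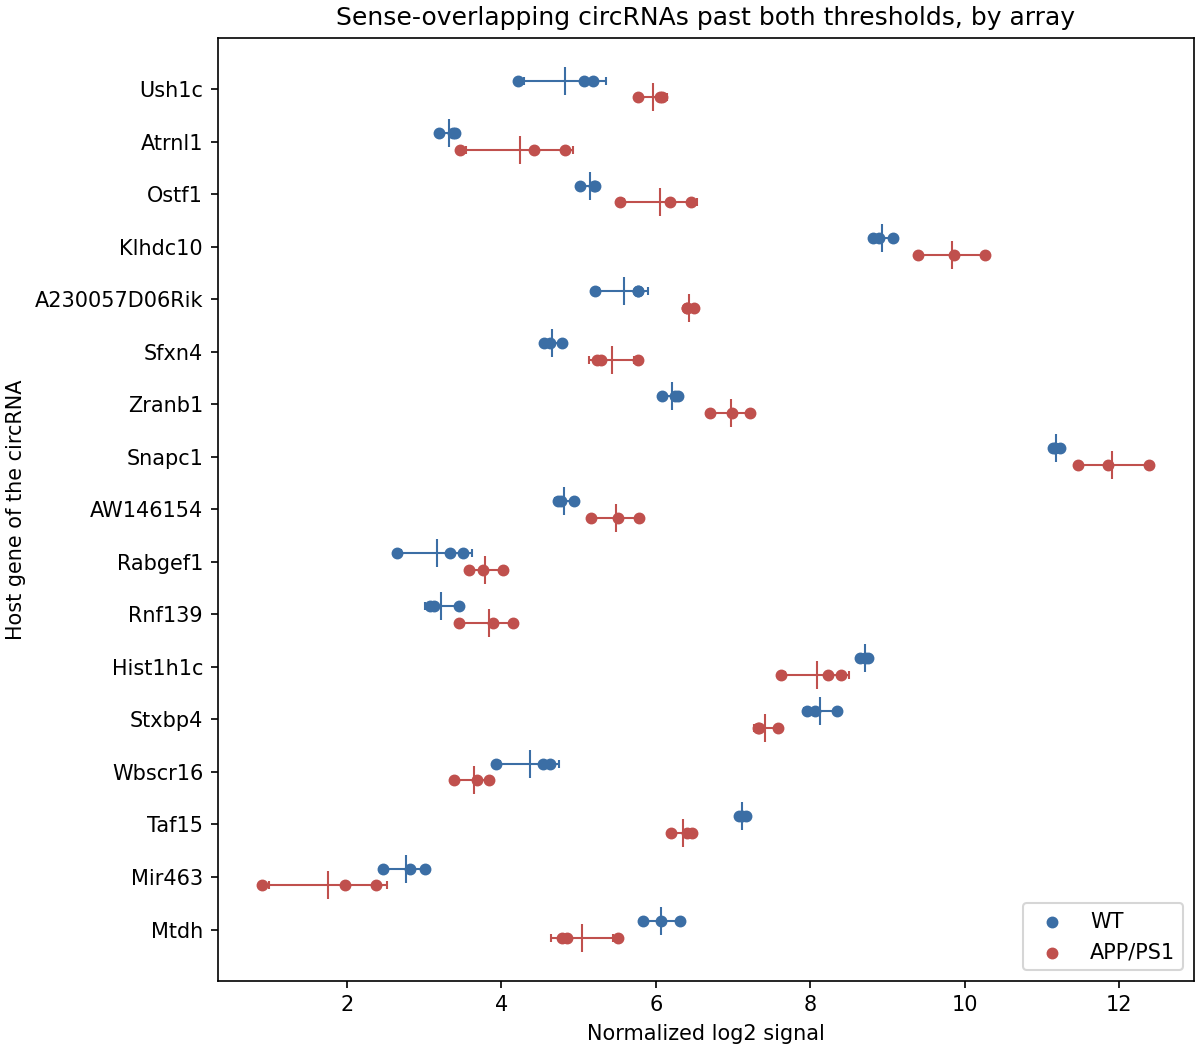
Normalized log2 signal of the 17 members past both thresholds on each array (points), with mean and SD (ticks and bars) of 3 WT and 3 APP/PS1 arrays. The genotypes overlap in none of the 17, which the thresholds themselves favour, and in 25.1% of all probes they do not overlap either. The log2 differences run from -1.02 (Mtdh) to 1.15 (Ush1c).

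Of 8 members with hosts that act in ubiquitin signalling, 3 were higher and 0 lower, beside 3.15% and 2.26% of all probes, and the higher ones were 1 to 3 under the alternatives. Klhdc10 encodes a substrate receptor of a ubiquitin ligase, and its circRNA of 3489 nt (chr6:30443989-30447477 in the sheet) read 8.82, 9.07 and 8.89 in WT and 10.26, 9.86 and 9.40 in APP/PS1, in the order of the arrays. All APP/PS1 values were above WT, by 0.91 (SE 0.22, limma adjusted p = 0.126), a fold change of 1.88, and this difference was past both thresholds under each of the 18 alternatives run. An exact permutation test of its 6 values gave p = 0.1 (two-sided), the smallest that 3 against 3 arrays allow. Any circRNA without overlap of the genotypes gives this value, so the test adds nothing to the separation itself. An exonic circRNA of Klhdc10 that shares its end and starts 438 bases further on read 6.46, 6.33 and 6.55 in WT and 6.31, 6.39 and 6.48 in APP/PS1. Its difference was -0.06 (SE 0.11); the gap between the circRNAs was not tested. The circRNA of Zranb1, a deubiquitinase gene also listed under immune signalling, read 6.29, 6.24 and 6.08 in WT and 7.22, 6.98 and 6.71 in APP/PS1, a difference of 0.77 (SE 0.15, limma adjusted p = 0.124), which was 0.47 with the normexp correction and 0.56 with the median signal, not past the thresholds. That of Rnf139, a ubiquitin ligase gene of the endoplasmic reticulum, read 3.07, 3.12 and 3.45 in WT, where WT array 1 was not well above background, and 3.46, 4.15 and 3.89 in APP/PS1. The groups almost touched, and the difference of 0.62 (SE 0.20) was no longer past the thresholds without WT array 1 (0.54), WT array 2 (0.57) or APP/PS1 array 2 (0.47). Nor was it with 75th percentile scaling (0.52), the normexp correction (0.09), the median signal (0.31), the authors' values (0.16) or the test of the methods. The other 5 circRNAs of the 8 with ubiquitin hosts ran from -0.28 to 0.08, and the median of the 8 was 0.04.

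Immune signalling hosts had 7 members, of which 2 were higher and 0 lower (3.15% and 2.26% of all probes), with a median of 0.00; the higher ones were 0 to 2 under the alternatives. Besides Zranb1 this was Rabgef1, an exchange factor gene for Rab GTPases. It read 2.64, 3.33 and 3.51 in WT and 4.02, 3.76 and 3.58 in APP/PS1, a dim signal that was not well above background on WT array 1. Its difference of 0.63 (SE 0.24, limma adjusted p = 0.239) was 0.36 without WT array 1, 0.49 without APP/PS1 array 1 and 0.66 without APP/PS1 array 2, none of them past the thresholds. It was also not past them with 75th percentile scaling (0.61), the normexp correction (0.09), the median signal (0.08), the authors' values (0.19), the test of the methods or a replicate block. Stim1, the calcium sensor gene of the endoplasmic reticulum, had a difference of 0.30 (SE 0.11) under the fold threshold. The circRNA of Ikzf1, a transcription factor gene of blood and microglial lineages, read 6.25, 6.63 and 6.32 in WT and 6.25, 5.36 and 6.31 in APP/PS1, with APP/PS1 array 2 the low one. Gbp2b, Fyn and Nfkbie lay between -0.06 and 0.00.

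The remaining higher members had hosts of varied function. The largest difference was that of Ush1c, which encodes the scaffold protein harmonin, at 4.21, 5.18 and 5.07 in WT and 6.05, 6.08 and 5.77 in APP/PS1. It came to 1.15 (SE 0.26, limma adjusted p = 0.126), a fold change of 2.21, and to 0.84 without WT array 1, the lowest WT value; with the normexp correction it was 0.51 and not past the thresholds. Ostf1, an osteoclast stimulating factor gene, had a circRNA at 5.01, 5.20 and 5.21 in WT and 6.45, 6.18 and 5.54 in APP/PS1, a difference of 0.91 (SE 0.23). It was not past the thresholds with the normexp correction (0.38), the median signal (0.52) or the authors' values (0.55). Snapc1 encodes a subunit of the complex that drives transcription of small nuclear RNA genes, and its circRNA, the brightest past the thresholds, read 11.24, 11.17 and 11.15 in WT and 12.39, 11.86 and 11.47 in APP/PS1. The WT arrays were tight and the APP/PS1 arrays were not; the difference of 0.72 (SE 0.22) fell to 0.49 without APP/PS1 array 1 and was then not past the thresholds, nor was it by the test of the methods. Sfxn4, a mitochondrial membrane protein gene and the only one of 11 members with mitochondrial hosts past them (5.41% of all probes), read 4.55, 4.63 and 4.78 in WT and 5.76, 5.28 and 5.23 in APP/PS1 (difference 0.78, SE 0.17). In the same 3 alternatives it was 0.28, 0.43 and 0.44, and no member with a mitochondrial host was past the thresholds there.

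Atrnl1 and AW146154 complete the higher members outside chromosome 7's Mir344 stretch. The circRNA of Atrnl1, an attractin-like gene, read 3.40, 3.19 and 3.37 in WT and 4.82, 4.42 and 3.46 in APP/PS1. APP/PS1 array 3 was close to WT, and the difference of 0.92 (SE 0.32) was not past the thresholds without WT array 2 (0.85), APP/PS1 array 1 (0.61) or APP/PS1 array 2 (0.83), by the test of the methods, or with the normexp correction (0.22), the median signal (0.30) or the authors' values (0.43). An exonic circRNA of Atrnl1 that starts 2 bases away had 0.63 (SE 0.39), and 0.98, past the thresholds, without WT array 3. This exonic circRNA read 1.96, 2.87 and 3.40 in WT and 3.85, 3.41 and 2.86 in APP/PS1. The genotypes overlapped, and the low WT array 1 and high APP/PS1 array 1 carried much of its difference. AW146154 read 4.94, 4.73 and 4.76 in WT and 5.16, 5.78 and 5.52 in APP/PS1, with 0.68 (SE 0.17), and 0.53 without APP/PS1 array 2, which was not past the thresholds. Nor were 0.58 with 75th percentile scaling, 0.24 with the normexp correction, 0.37 with the median signal and 0.36 in the authors' values.

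Among the 6 lower members, that of Taf15 had the largest difference beside its error. Taf15 encodes an RNA-binding protein of the FET family, and its circRNA of 3125 nt (chr11:83484289-83487413) read 7.07, 7.12 and 7.17 in WT and 6.40, 6.19 and 6.47 in APP/PS1. The difference was -0.77 (SE 0.12, limma adjusted p = 0.124), and it was not past the thresholds with the normexp correction (-0.39), the median signal (-0.47) or the authors' values (-0.51). The circRNA of Mtdh, the metadherin gene, is 68 nt long (chr15:34099515-34099582) and read 6.06, 5.83 and 6.31 in WT and 5.51, 4.78 and 4.84 in APP/PS1, a difference of -1.02 (SE 0.22, limma adjusted p = 0.124); with the normexp correction it was -0.41 and not past the thresholds. An exonic circRNA of Mtdh, of 1032 nt, read 4.63, 4.77 and 4.62 in WT and 4.62, 4.63 and 4.52 in APP/PS1, with -0.08 (SE 0.11); the gap was not tested. Stxbp4, a syntaxin-binding protein gene, read 8.35, 7.96 and 8.06 in WT and 7.32, 7.33 and 7.58 in APP/PS1, a difference of -0.71 (SE 0.15). Wbscr16, named for the chromosome region deleted in Williams-Beuren syndrome, read 4.63, 3.93 and 4.54 in WT and 3.39, 3.84 and 3.68 in APP/PS1 (-0.73, SE 0.21). In the 3 alternatives that Taf15 did not pass, neither was past the thresholds, with -0.40, -0.46 and -0.47 for Stxbp4 and -0.20, -0.35 and -0.40 for Wbscr16.

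The Mir463 member that spans 5 microRNA hairpins was the dimmest of all members. It read 3.01, 2.82 and 2.46 in WT and 2.38, 1.97 and 0.90 in APP/PS1, and was well above background on 2 WT arrays and 1 APP/PS1 array. Its difference was -1.02 (SE 0.36, limma adjusted p = 0.214), -0.87 and not past the thresholds without WT array 1, and -0.60 without APP/PS1 array 3. It shrank to -0.05 with the normexp correction, -0.18 with the median signal and -0.13 in the authors' values, where as by the test of the methods it was not past them.

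The 13 members of 60 to 119 nt leaned to lower values in APP/PS1, a grouping made after the values were seen. Their median difference was -0.21, 11 of 13 were below 0, and in 6 all APP/PS1 values were below all WT values, where 12.8% of all probes did so. The median of the 54 exonic circRNAs under 200 nt was -0.06, and 35 of these were below 0. Under the alternatives the median of the 13 lay between -0.32 and -0.10. The 13 are not independent, since 3 of them come from Hist1h1c and 2 of those overlap, so that their probes may read a shared sequence. The Hist1h1c circRNA of chr13:23739383-23739448 read 8.65, 8.71 and 8.75 in WT and 8.40, 7.61 and 8.23 in APP/PS1, that of chr13:23739401-23739466 read 8.78, 8.65 and 8.70 and then 8.58, 7.66 and 8.31, and that of chr13:23739296-23739355 read 7.28, 7.26 and 7.22 and then 6.95, 6.57 and 6.89. All were lower on each APP/PS1 array than on any WT array, with APP/PS1 array 2 the lowest. The differences were -0.62 (SE 0.20), -0.53 (SE 0.23) and -0.46 (SE 0.13), and only the first was past the fold threshold; it was -0.38 without APP/PS1 array 2 and -0.60 without WT array 3, not past both thresholds in either case, nor with the normexp correction (-0.57) or by the test of the methods. The second was past them without APP/PS1 array 1 (-0.72). Without APP/PS1 array 2 the median of the 3 was -0.33, against -0.53 with all arrays, and none of the 3 was past the thresholds. The circRNAs of Pcdh18 (-0.41, SE 0.12) and Eif4h, a translation factor gene (-0.39, SE 0.14), were lower with an unadjusted p under 0.05 and did not reach the fold threshold.

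**Figure D3:**
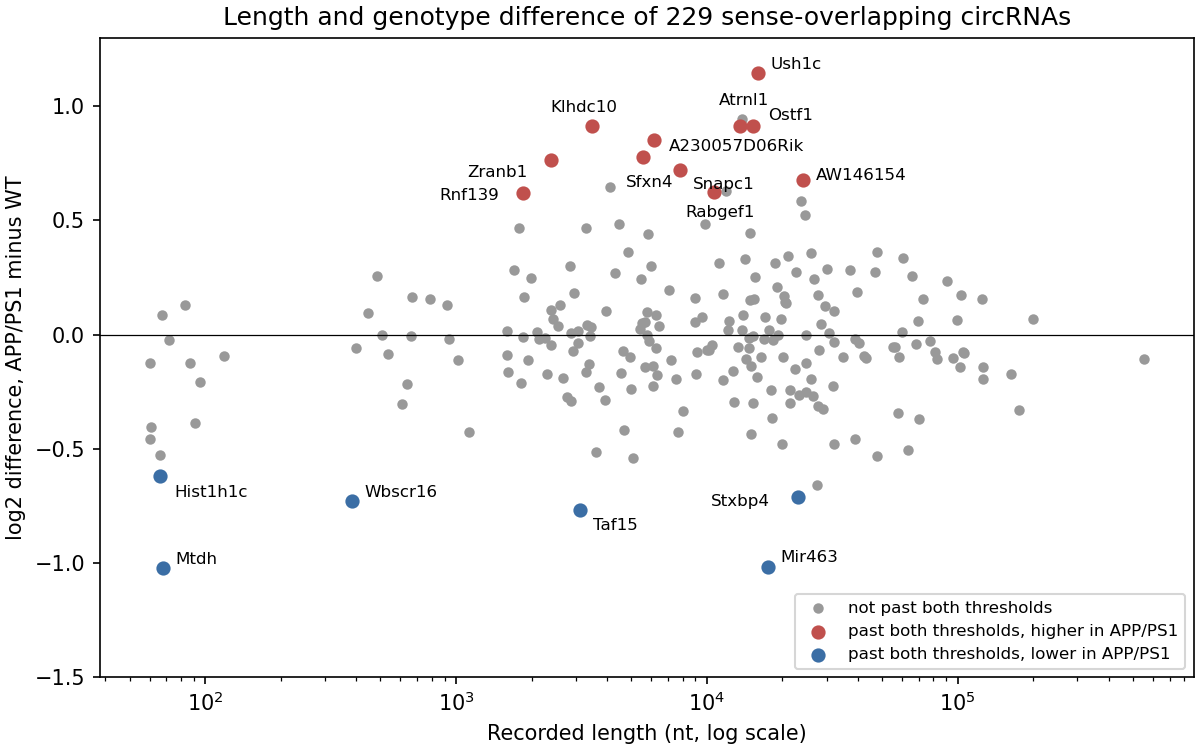
Recorded length in nt (log axis) and log2 difference, APP/PS1 minus WT, of the 229 members; red and blue points are the 11 higher and 6 lower members past both thresholds. The Spearman correlation over all 229 is 0.02, while 11 of the 13 members of 60 to 119 nt, at the left, lie below 0.

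On chromosome 7, 7 members lay between 59330560 and 62202144, a stretch that includes Mir344f and Mir344i. The circRNA of A230057D06Rik, a noncoding transcript whose promoter is printed above, read 5.21, 5.76 and 5.77 in WT and 6.40, 6.50 and 6.40 in APP/PS1. Its APP/PS1 arrays were nearly equal, and the difference was 0.85 (SE 0.17, limma adjusted p = 0.124), and 0.49, not past the thresholds, with the normexp correction. Its neighbours were not past the thresholds: the circRNA named for Gm25499 had 0.63 (SE 0.32; 0.88 and past them without WT array 3), D7Ertd715e 0.15 and both circRNAs of U80893, which share their start, 0.14 and 0.28, while those of Mir344f and Mir344i had -0.17 and -0.06. The median of the 7 was 0.15, and between 0.06 and 0.32 under the alternatives.

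Neuronal and synaptic hosts had 14 members, none past the thresholds, with a median of 0.01. They included bright circRNAs of Spock1 (mean 11.84), Cnr1, the cannabinoid receptor gene (11.32), and Dcx, the doublecortin gene (9.86). Rims1, a presynaptic scaffold gene, had the largest difference of the 14, -0.53 (SE 0.16), with its APP/PS1 values below WT; it was past the thresholds without WT array 2 (-0.60) or APP/PS1 array 1 (-0.65). Caln1, a neuronal calcium sensor gene, with 0.34 (SE 0.10), and Sv2b, a synaptic vesicle protein gene, with 0.31 (SE 0.12), lay above WT. Of all probes 3.15% were higher and 2.26% lower, as a measure for the counts of these and the other lists. Vesicle and autophagy hosts had 12 members, 0 higher and 1 lower, the Stxbp4 circRNA, and 9 of the 12 were below 0, as were 127 of all 229 members, with a median of -0.14. Rabgap1, a Rab GTPase regulator gene, had -0.51 (SE 0.17) and Stx8, a SNARE gene, -0.46 (SE 0.13), under the fold threshold, which Rabgap1 passed without WT array 2 (-0.66) or APP/PS1 array 2 (-0.61) and with 75th percentile scaling (-0.60). The highest of the 12 was Dram2 with 0.48 (SE 0.39), past the thresholds without WT array 1 (0.87). Chromatin and transcription hosts had 29 members, 1 higher (Snapc1) and 2 lower (Taf15 and Hist1h1c), with a median of -0.07. RNA processing hosts had 10 members with 0 higher and 1 lower (Taf15, counted in both lists) and a median of -0.03, mitochondrial hosts 11 with a median of 0.07, and translation hosts 5 with none past the thresholds and a median of -0.11. Under the alternatives the median of the neuronal list ran from -0.05 to 0.14, of the immune list from -0.02 to 0.15, of the RNA processing list from -0.11 to 0.03 and of the ubiquitin list from -0.06 to 0.11. The mitochondrial median ran from -0.0001 to 0.13. The vesicle list stayed below 0 (-0.25 to -0.04), as did the chromatin list (-0.11 to -0.04) and the translation list (-0.16 to -0.03).

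Both ends of 9 members lay within 5 bases of those of an exonic circRNA of the same host. All 9 came from the smaller numbered source, and 8 of the exonic partners came from circBase. Their recorded lengths were 2094 to 82356 nt against 174 to 5866 nt for the partners, since a member's length counts the whole span. Probes of such pairs may read nearly the same junction. None of the 18 circRNAs was past the thresholds, and the differences within a pair were apart by at most 0.18, with a median of 0.09. In Ikzf1 the member had -0.43 (SE 0.26) and the exonic circRNA -0.51 (SE 0.23), in Mpp6 -0.48 (SE 0.17) and -0.41, and in Ash1l, a histone methyltransferase gene, -0.22 (SE 0.12) and -0.32. Clasp2 had 0.02 and 0.05, Tcf20 -0.03 and -0.09, Tspan3 0.01 and -0.03, Tmem164 -0.10 and -0.26, Mtss1 -0.23 and -0.12, and Pdss2 0.07 and -0.11. In each of the 9 pairs the gap was smaller than the standard error of either difference. Without APP/PS1 array 1 the Mpp6 member had -0.62 and was past the thresholds.

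**Figure D4:**
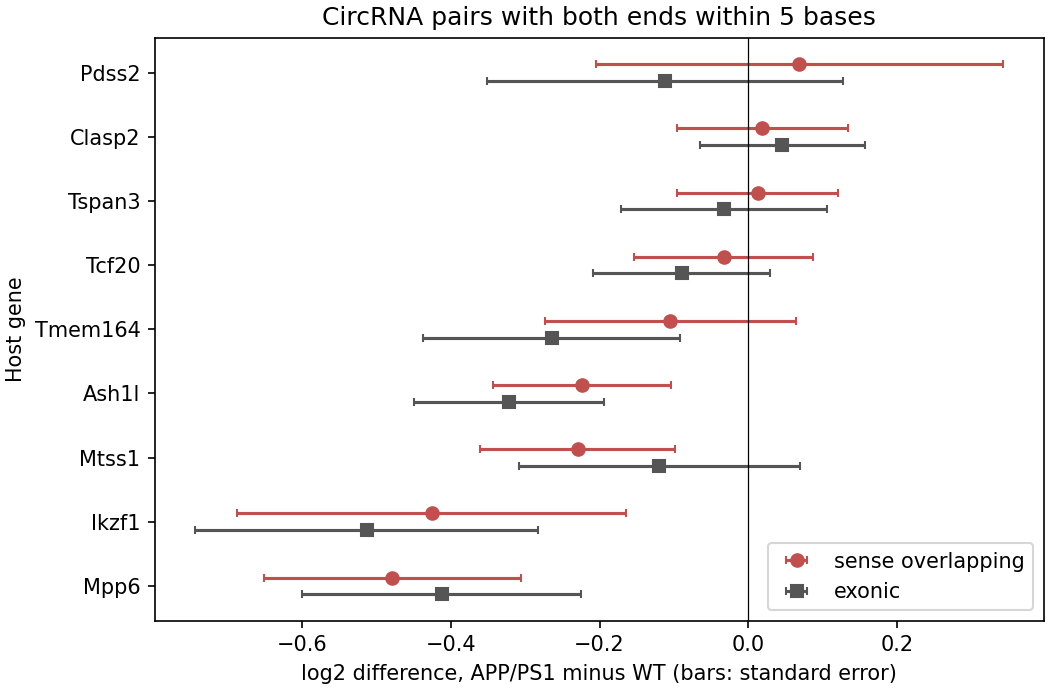
Log2 difference, APP/PS1 minus WT, with its standard error, of 9 sense-overlapping circRNAs (circles) and the exonic circRNAs of the same host (squares) with both ends within 5 bases. Members run from -0.48 to 0.07 and partners from -0.51 to 0.05.

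Of the 36 members whose host also had an exonic circRNA in the sheet, 3 were past the thresholds, those of Klhdc10, Atrnl1 and Mtdh, where 7.42% of all members and 5.41% of all probes were. Of the other hosts with several members, XLOC_006198 had circRNAs at 0.01 and -0.16, Gm9805 at 0.09 and 0.65 (SE 0.49) and Pdss2 at 0.07 and 0.10, with none past the thresholds. The second of Gm9805 was past them without WT array 3 (1.14) and with a replicate block. It read 2.35, 3.60 and 4.39 in WT and 3.62, 4.24 and 4.42 in APP/PS1, so the low WT array 1 carried most of its difference.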

How the data were processed

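Samples were grouped by genotype from the labels, 3 WT and 3 APP/PS1, 1 array each. The authors deposited spot intensity values of each array from Feature Extraction 11.0.1.1 (version from the submitters' processing notes), and a table of log2 values, quantile normalized according to the methods. Of the study's annotation sheet, only the annotation was used; its fold changes, p-values and signal columns, which hold the authors' own comparison, were not. Processed signals, already corrected for background, were log2 transformed, outlier spots were dropped, a probe stayed when it was well above background in 3 or more of the 6 arrays, and arrays were quantile normalized. Genotypes were compared in R 4.3.3 with limma 3.58.1 (lmFit, eBayes) over 13420 probes, with Benjamini-Hochberg adjustment over all of them and thresholds of 1.5-fold and p under 0.05 before adjustment. Differences are APP/PS1 minus WT on the log2 scale. The fit was tested on simulated data of 13420 probes, of which 200 were changed by 1.5 (log2), more than the difference of any member. It recovered 198 of these and also called 157 unchanged probes. The number of arrays limits the precision.

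CircRNAs were named one by one by this rule: the 10 largest increases and 10 largest decreases past both thresholds without overlap of the genotypes, the 5 brightest and 5 dimmest, the 3 shortest and 3 longest, the Hist1h1c circRNAs, hosts with several members, the members of 1 stretch of chromosome 7, members with ends within 5 bases of an exonic circRNA, and the immune, neuronal and vesicle lists. Of the neuronal and vesicle lists only some members are named, chosen after their values were seen. The 11th of the higher members, Rnf139, and the others of the text outside this rule were chosen after their values were seen. The members and lists were chosen with earlier results of these data known. Exon boundaries, splice sites and junction sequences were not analysed here. Gene models and sequences are those of RefSeq for GRCm38.p6. Alternatives covered normalization, background, filter, outlier spots, test, replicate block, the authors' values, source of the annotation, end tolerance and each array left out.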

Additional observations from a re-analysis of the deposited data

How the results depend on the processing

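Of 303 comparisons of the 17 members past both thresholds with an alternative, 233 were past them too, 70 were not, and none turned direction. The main counts were 11 higher and 6 lower members, 60 exonic circRNAs, 726 probes and 9 members on the host lists. With normexp and an offset of 50, run on the median spot signal instead of the processed signal, they were 2, 0, 15, 187 and 2, without any background subtraction (median signal) 4, 2, 22, 287 and 3, and from the processed values of the authors 5, 2, 25, 318 and 4. A t-test as in the methods on the latter, an alternative chosen after seeing the data, gave 5, 2, 16, 218 and 4, and this t-test on the main values gave 7 higher and 4 lower members, 37 exonic circRNAs, 484 probes and 5 on the lists, with 4 probes past an adjusted p of 0.05 and no member. The gap in median signal to exonic circRNAs, 0.33, was 0.14, 0.20 and 0.22 under the first 3 of these. The first of these changed input and correction at once, and the cause of the lower counts was not tested. The larger numbered source alone, with fewer members, gave 8 higher and 3 lower members of 151 (7.28%) and 5 on the lists, and at a tolerance of 0 bases 0 members shared both ends with an exonic circRNA. Without the 13 shortest members, a setting chosen after seeing the data, 11 were higher and 4 lower.

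With each array left out, there were 7 to 14 higher and 6 to 10 lower members, 57 to 87 exonic circRNAs, 609 to 919 probes and 8 to 11 on the lists; the median difference of members ran from -0.035 to 0.012, the gap in median signal from 0.31 to 0.35 and that in SD from -0.015 to 0.013. Differences of members not past the thresholds turned sign (alternatives, then lowest and highest with an array left out). Pdss2 (0.069): -0.17 to 0.29. Tcf20 (-0.033): 0.0078 75th percentile, -0.10 to 0.026. Gbp2b (0.00024): -0.071 offset 50, -0.078 median signal, -0.083 authors, -0.083 authors with t-test, -0.13 to 0.15. Tspan3 (0.013): -0.055 75th percentile, -0.025 offset 50, -0.011 median signal, -0.033 authors, -0.033 authors with t-test, -0.042 to 0.061. Clasp2 (0.019): -0.032 to 0.095. Tmem164 (-0.10): -0.22 to 0.049. Soga3 (0.017): -0.00084 offset 50, -0.00085 median signal, -0.0090 to 0.060. Fyn (-0.039): -0.096 to 0.055. Pdss2 (0.096): -0.088 to 0.25. Cct2 (-0.11): -0.19 to 0.048. Zfp808 (0.062): -0.21 75th percentile, -0.087 loess, -0.10 no filter, -0.18 to 0.40. XLOC_006198 (0.0079): -0.10 to 0.16. Dnajc15 (0.34): -0.32 to 0.70. Gm9805 (0.087): -0.0048 75th percentile. Nfkbie (-0.060): 0.0046 offset 50, 0.0042 median signal, -0.17 to 0.064. Hpse2 (-0.20): -0.43 to 0.13. Mir344i (-0.056): -0.19 to 0.071. Vps33b (-0.035): 0.0052 75th percentile, 0.0090 median signal, 0.015 authors, 0.015 authors with t-test, -0.81 to 0.51. AK006870 (0.067): -0.020 75th percentile, -0.013 to 0.18. With replicate number as the replicate block there were 12 higher and 7 lower members of 749 probes, among them those of Acer3, Gm9805 and Ccnc. Arrays of the same number deviated from their group means with correlations of -0.25, -0.08 and -0.22, and samples are not paired by number. A slide block was not run, with 1 scan of all arrays. Signal close to background limits what the dim members can show.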
